A study of Homo sapiens with 4 samples.

Results

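The genes described here were 39 receptor tyrosine kinase genes other than KIT, PDGFRA, MERTK and the insulin receptor family, of 36337 gene names carried by the array. They were listed by gene name, as members of 11 receptor families. Their transcripts were measured in GIST-T1, a line of human gastrointestinal stromal tumor (GIST) cells that is established in culture. The cells had been nucleofected with 100 pmol of a mirVana miR-335 mimic, a synthetic double of the mature microRNA, or of the mirVana negative control #1. Total RNA was taken 48 h later, and 100 ng of each sample was labeled with 1 dye and hybridized to an Agilent array. The mimic group and the control group held 2 arrays each, all from the same cell line and without an untransfected sample. Nothing in the labels says that replicates were separate cultures, so every p-value given here measures only the spread between these samples, which may be technical. A further label line of the mimic samples names another microRNA (miR-34a), whereas their title, their transfection field and their main description name miR-335, and these were followed.

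Receptor tyrosine kinases are single-pass membrane proteins that bind a ligand outside the cell, pair up, and phosphorylate tyrosines on themselves and on adaptor proteins, which passes the signal to the RAS-MAPK and PI3K-AKT pathways. In most GISTs an activating mutation of KIT or PDGFRA drives growth, and other receptors of this class have been studied as routes around the inhibition of KIT. A microRNA pairs through its seed, near its 5′ end, with sites that lie mostly in the 3′UTRs of mRNAs, and lowers the level or the translation of those mRNAs.

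The mature miR-335-5p is shown because its seed defines the sites sought below. It lies on chromosome 7, positions 130496126 to 130496148, plus strand, in GRCh38.p14 (sequence from RefSeq), and the seed (bases 2 to 8) is in capitals.
miR-335-5p: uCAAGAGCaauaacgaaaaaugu
Matches to this seed were sought in the 60-base array probes on the sense strand only. The 6mer CTCTTG was in 1.92% of all 50599 probes, and in 3 of the 70 probes of the member genes. The 7mer-A1 CTCTTGA, which contains the 6mer, was in 0.464% of all probes and in 2 member probes. The 7mer-m8 GCTCTTG and the 8mer GCTCTTGA, which contains all 3 shorter sites, were in 0.437% and 0.0988% of all probes, and 1 member probe held both. The 3 member probes with a match are shown by the 30 bases around it, with the longest match in capitals, since 1 of them belongs to the only receptor gene that passed the test.
EPHA4: ccagtactgaataaactcaaaaCTCTTGAa
ERBB3: GCTCTTGActacttggaactaggctcttat
FLT3: cgtctgcgtttaCTCTTGttttcaaaggga
The EPHA4 match occupied bases 53 to 59 of its probe. The ERBB3 and FLT3 probes shown were not well above background on any array, so no change was measured for them. A match in a probe is a description of these letters and not a site shown to bind the microRNA, and a probe covers only a small stretch of its transcript.

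All values are log2 processed signals relative to the 75th percentile of the array's probes, so that 0 is the level of that percentile. On each array, 20386 to 21214 of 50599 probes were well above background, which is a flag of the scanner software, and the lowest such signal on any array was -3.19. A probe was tested with limma when both arrays of the mimic group, of the control group or of both flagged it so, which gave 20328 tested probes. Of 7 marker genes of GIST and of the interstitial cells of Cajal, 7 were well above background on all 4 arrays, KIT and ANO1 among them. Markers of other tissues were mixed: this held for 3 of 6 epithelial markers (KRT8, KRT18 and EPCAM, while CDH1, KRT19 and KRT5 were well above background on no array). It held for 0 of 5 endothelial markers (CDH5 on 2 arrays, the other 4 on none). It held for 1 of 5 blood cell markers (CD14), with CD68 on 2 arrays, SPI1 on 1, and PTPRC and CD3E on none. It also held for 1 of 5 neuronal and glial markers (SNAP25) and for 2 of 4 smooth muscle markers (DES and ACTA2, the latter lower with the mimic by a change of -0.50), and the part of these in the results below was not tested. Because the samples were bulk RNA, fewer cells with a transcript and less of it per cell cannot be told apart. The 4 arrays were on 1 slide, the control samples next to each other and the mimic samples next to each other, so position on the slide and group cannot be told apart.

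Of the 39 receptor genes, 26 had a tested probe (36 probes in all) and 13 had no probe well above background on any array. Of the 36 tested probes, 34 were well above background on all 4 arrays. The 13 undetected genes were ALK, CSF1R, EPHA2, EPHA7, ERBB4, FLT3, KDR, MET, NTRK2, NTRK3, ROS1, TEK and TIE1, and their 22 probes read between -5.51 and -3.47. Among these were MET, the receptor for hepatocyte growth factor, CSF1R and FLT3, which share the receptor class of KIT and PDGFRA, and the endothelial receptors KDR, TEK and TIE1. The MET probe read -3.60 and -3.51 on the mimic arrays and -4.72 and -4.83 on the control arrays, and since none of the 4 arrays flagged it as above background no fold was given. The other 12 untested probes belonged to genes with another, tested probe.

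The detected receptor genes covered most of the range of the array. Represented by its brightest tested probe, FGFR1, a receptor for fibroblast growth factors, had the highest signal, above 85.2% of all tested probes on the control arrays. FGFR2 followed at 82.6%, RYK, a WNT co-receptor with an inactive kinase domain, at 81.8%, and the ephrin receptors EPHB3 and EPHA4 at 78.1% and 73.3%. TYRO3, ROR2, EPHA3, ROR1 and DDR2 completed the 10 brightest. Below them came EPHB4, LTK and DDR1, and these 13 were above the 75th percentile of all probes on both control arrays. PTK7, EGFR, ERBB2, MST1R, FLT4, AXL, FGFR3 and EPHB2 followed, and PDGFRB, RET, ERBB3, FGFR4 and FLT1 were the dimmest. This is an order of probe signals and not of transcript amounts, because probes differ in how strongly they bind. Neighbors such as FGFR2 and RYK were set apart on the control arrays, whereas the control values of AXL, FGFR3 and EPHB2 overlapped.

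**Figure D1:**
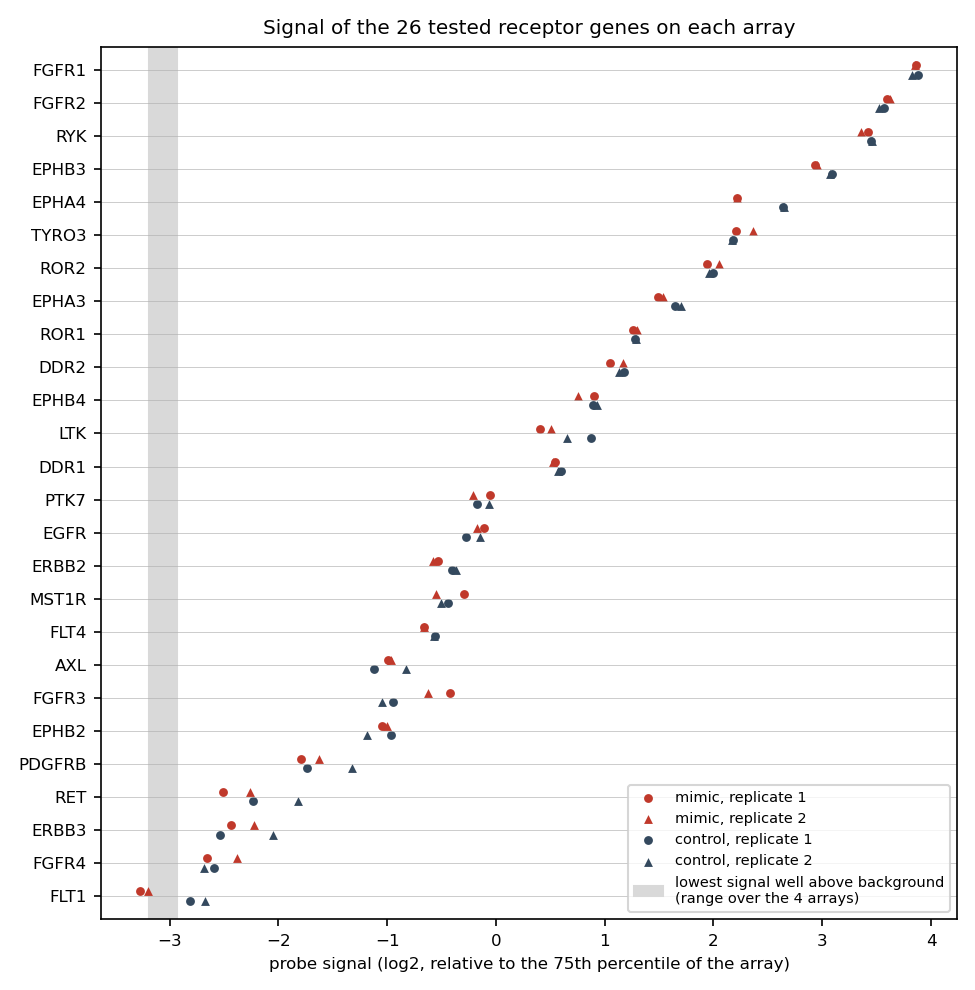
Signal of the representative probe of each of the 26 tested receptor genes (rows, ordered by control mean) on each of the 4 arrays (log2, relative to the array's 75th percentile; red, mimic; dark, control). The red points of EPHA4 lie clear of its control points, those of FLT1 reach the grey band that marks the lowest signals well above background, and most other rows hold 4 points close together.

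With the miR-335 mimic most detected receptors stayed near their control levels, as most of the array did: the change of 28 of the 36 tested probes (77.8%) lay within 0.25 of 0, against 81.6% of all tested probes. Of the receptor probes, 1 of 36 (EPHA4) fell and 0 rose at a limma adjusted p under 0.05, against 1.15% of all tested probes that fell and 1.47% that rose (2.62% in all). At an unadjusted p under 0.05 the count was 9 of 36, close to the 25.3% of all tested probes, with 6 lower and 3 higher. The methods' t-test with the same adjustment called 0 of the members and 0 of all tested probes, and without adjustment 5 member probes lower and 1 higher, against 11.0% and 9.27% of all tested probes. The change was below 0 for 23 probes and above 0 for 13, or 63.9% below 0, against 53.8% of all tested probes. The median change was -0.05 over the 36 probes and -0.01 over all tested probes. No tested member probe fell by more than 1.5-fold, which 1.47% of all tested probes did. A dim EGFR probe, which entered the test only through the mimic arrays, was the 1 that rose by more than that, against 2.43% of all. The mimic arrays did not overlap the control arrays for 18 of 36 probes against 59.7% of all tested probes, with 12 below (32.5% of all) and 6 above (27.1% of all). With 2 arrays against 2, the smallest two-sided p of an exact test on a single probe is 0.333, and the calls rest on the spread that limma pools over all probes.

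**Figure D2:**
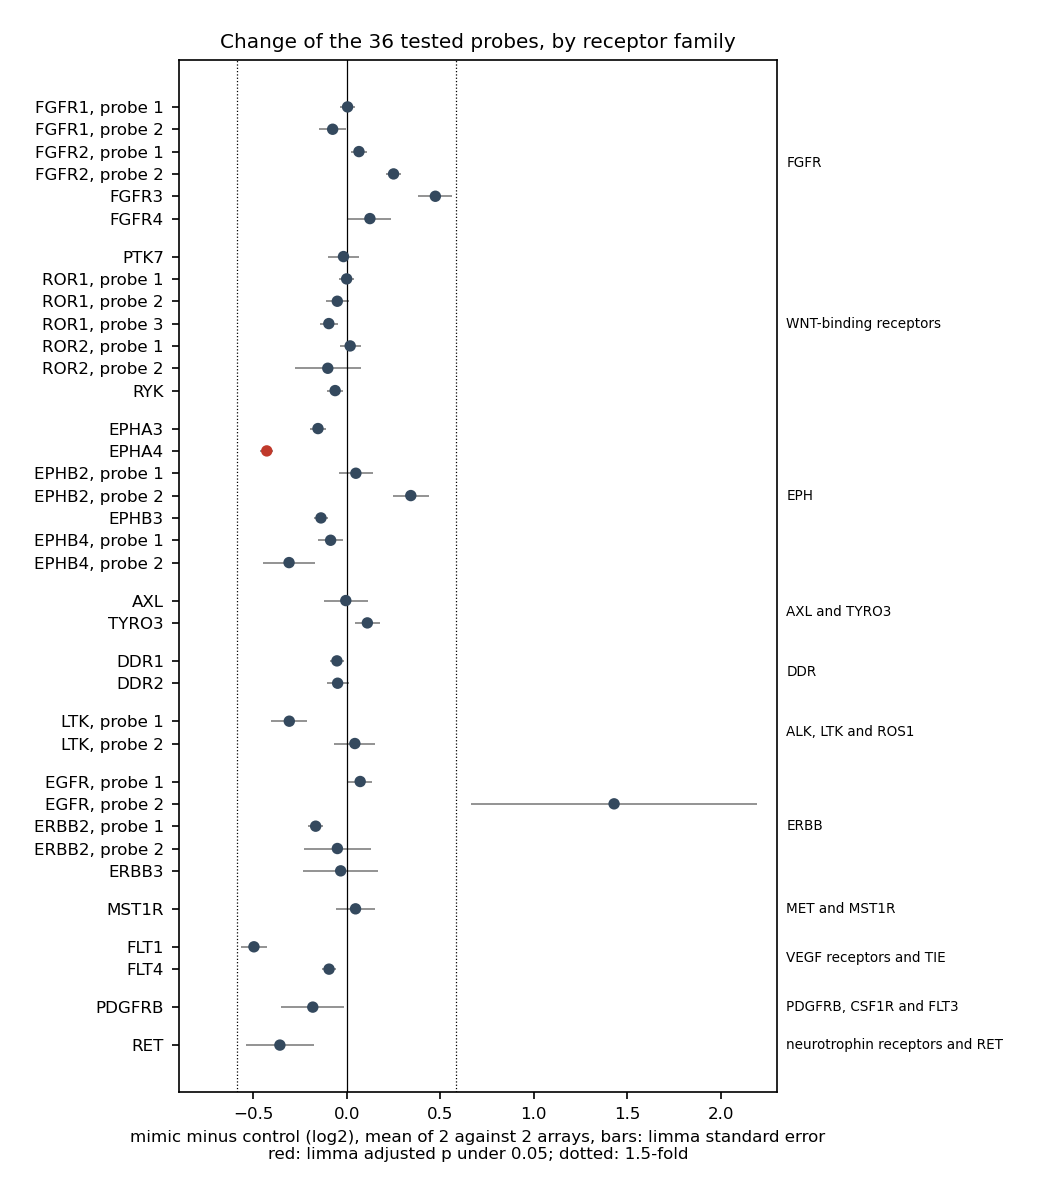
Mimic minus control (log2) of the 36 tested probes, grouped by receptor family, with limma standard errors; numbers after a gene order its probes from the brightest down. EPHA4, in red, is the only probe with an adjusted p under 0.05, and the only point beyond the dotted 1.5-fold lines is the dimmer EGFR probe, which has the widest error bar.

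EPHA4 fell. This ephrin receptor binds ephrins of both classes and is known for guiding axons and for sorting cells at tissue borders. Its probe, at positions 222290717 to 222290776 on the minus strand of chromosome 2 (hg19), read 2.22 and 2.22 on the mimic arrays and 2.64 and 2.65 on the control arrays. Both mimic arrays were below both control arrays, by far more than replicates differed. The change was -0.43 ± 0.04 (SE, n = 2 arrays per group), a 1.35-fold lower signal, with a limma adjusted p of 0.0388. The probe is printed 10 times on each array. All 19 usable mimic spots, between 2.06 and 2.28, were below all 20 control spots, between 2.56 and 2.71. Spots of an array share its RNA and are not replicates of the transfection. The adjusted p lay close to the threshold. It was 0.131 with the replicate number as a block and 0.154 to 0.196 when any 1 array was left out, while the change stayed between -0.43 and -0.42. Of all 92 tested probes that contain the 7mer-A1 seen in the EPHA4 probe, 8 fell (8.70%), EPHA4 itself among them, against 1.15% of all tested probes. The median change of these 92 was -0.04, against -0.01 over all tested probes. This site was singled out because the EPHA4 probe holds it, and EPHA4 is counted in the share. The share itself was not tested, and whether the match has a part in the change of EPHA4 was not tested.

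**Figure D3:**
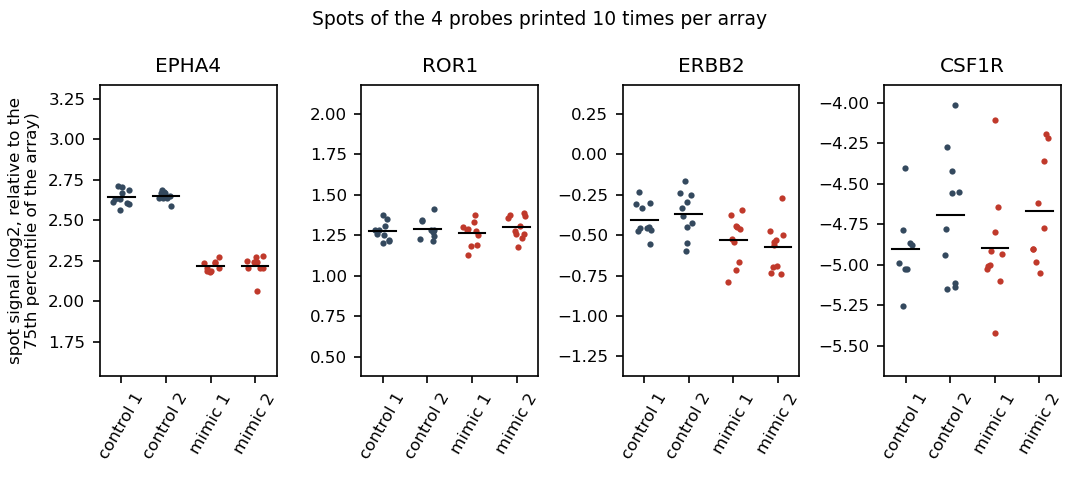
Single spots (points) and their mean (line) on each array for the 4 receptor probes that are printed 10 times per array (log2, relative to the array's 75th percentile; each panel spans the same height). The EPHA4 spots of the mimic arrays lie below all control spots, those of ROR1 overlap fully, those of ERBB2 overlap in part, and those of CSF1R scatter at background level.

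The other ephrin receptors, which meet membrane-bound ephrins on neighboring cells, moved less. EPHB3, an ephrin-B receptor, read 2.93 and 2.95 on the mimic arrays and 3.09 and 3.08 on the control arrays (change -0.14 ± 0.04, limma adjusted p = 0.141). EPHA3 read 1.49 and 1.54 against 1.64 and 1.70 (change -0.15 ± 0.04, limma adjusted p = 0.159). For both genes the mimic arrays were below the control arrays, and neither passed the test. EPHB4, the ephrin-B2 receptor of veins, had a change of -0.09 ± 0.07 by its brighter probe and -0.31 ± 0.14 by its dimmer one. EPHB2 read -1.05 and -1.002 against -0.97 and -1.18, and the groups overlapped (change 0.05 ± 0.09). Its dimmer probe read -1.56 and -1.69 on the mimic arrays and -2.07 and -1.86 on the control arrays, above them on both (change 0.34 ± 0.10, limma adjusted p = 0.155). EPHA2 and EPHA7 were not detected, so of the 7 ephrin receptor genes among the members 5 were tested, with 5 probes lower, 2 higher and 1 call. Outside the members, EPHB1 read -0.60 and -0.10 on the mimic arrays against -0.68 and -0.64 (change 0.31 ± 0.19, limma adjusted p = 0.386). EPHA1, EPHA5, EPHA6, EPHA8, EPHA10 and EPHB6 had no tested probe. Among the ephrins, EFNA1 (-0.27) and EFNA4 (-0.20) were lower with limma adjusted p of 0.0810 and 0.120, and EFNB1 (0.03), EFNB2 (-0.04) and EFNB3 (-0.09) differed less.

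The fibroblast growth factor receptors, which need heparan sulfate as a cofactor for their ligands, were the family with the brightest probes. FGFR1 read 3.87 and 3.85 on the mimic arrays and 3.88 and 3.83 on the control arrays. The mimic values lay inside the control range (change 0.00 ± 0.04, limma adjusted p = 0.960), and a dimmer probe had a change of -0.08 ± 0.07. FGFR2 read 3.59 and 3.62 against 3.56 and 3.52 (change 0.06 ± 0.04, limma adjusted p = 0.394). Its dimmer probe read 1.61 and 1.59 against 1.32 and 1.38, with both mimic arrays above both control arrays (change 0.25 ± 0.04, limma adjusted p = 0.0798). FGFR3, a receptor that restrains bone growth, read -0.42 and -0.62 on the mimic arrays and -0.95 and -1.04 on the control arrays. Both mimic arrays were higher, by more than replicates differed, yet the gene did not pass the test (change 0.47 ± 0.09, limma adjusted p = 0.0979). FGFR3 passed in 2 of 16 alternative settings: normexp background correction (change 0.31, limma adjusted p = 0.0285) and an intensity trend (0.0295). These 2 settings called 792 and 1347 of all tested probes higher, against 299 in the fit reported here. FGFR4 was near background and its groups overlapped (change 0.12 ± 0.12). Over the 4 genes, 5 of 6 tested probes were above 0 and 1 below, and none passed; scaled to the spike-in controls, 2 were above and 4 below.

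The receptors that bind WNT proteins, RYK, PTK7, ROR1 and ROR2, were all detected and were nearly level between groups. Of their 7 tested probes 6 were below 0 and 1 above, with changes between -0.10 and 0.02, and none passed. RYK read 3.42 and 3.36 on the mimic arrays and 3.44 and 3.46 on the control arrays (change -0.06 ± 0.04, limma adjusted p = 0.416). ROR2, a receptor for WNT5A, read 1.94 and 2.05 against 2.00 and 1.96 (change 0.02 ± 0.06, limma adjusted p = 0.861), and its dimmer probe had a change of -0.10 ± 0.18. ROR1, the related receptor, read 1.26 and 1.30 against 1.27 and 1.29 (limma adjusted p = 0.989). By these probes the groups overlapped for ROR2 and ROR1, and the 2 RYK mimic values lay just under the control values. The ROR1 probe is also printed 10 times per array, and its 20 mimic spots (1.13 to 1.39) and 20 control spots (1.20 to 1.41) covered nearly the same range. The ROR1 standard error was 0.04, close to that of EPHA4. The dimmer ROR1 probes had changes of -0.05 ± 0.06 and -0.10 ± 0.05, the latter with both mimic arrays below both control arrays. PTK7, another receptor with an inactive kinase domain, had a change of -0.02 ± 0.08.

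TYRO3, which binds the phosphatidylserine-bridging ligands GAS6 and PROS1, read 2.21 and 2.36 on the mimic arrays and 2.18 and 2.17 on the control arrays (change 0.11 ± 0.07, limma adjusted p = 0.386). Both mimic values were above the control values, with most of the difference on 1 array. AXL, the other GAS6 receptor among the members, read -0.996 and -0.96 against -1.12 and -0.82, and the groups overlapped (change -0.01 ± 0.12). The collagen receptor DDR2 read 1.05 and 1.16 against 1.18 and 1.13 (change -0.05 ± 0.06, limma adjusted p = 0.633), and DDR1, also activated by collagen, had a change of -0.05 ± 0.04. Neither passed the test.

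The ERBB family, the receptors for epidermal growth factor and neuregulins, sat in the middle and lower part of the range, and ERBB4 was not detected. EGFR, read by a probe for transcript variant 1, gave -0.11 and -0.18 on the mimic arrays and -0.28 and -0.15 on the control arrays (change 0.07 ± 0.07, limma adjusted p = 0.540), with overlapping groups. A dimmer probe, annotated to EGFR transcript variant 2 and lying at positions 55231446 to 55231505 of chromosome 7 (hg19), read -1.01 and -1.41 against -3.65 and -1.63. It was well above background on both mimic arrays and on 1 of the 2 control arrays, so it entered the test only through the group where it was higher. It was the only tested member probe past 1.5-fold (change 1.43 ± 0.77, limma adjusted p = 0.334). The size came from 1 control array: without control replicate 1 the change was 0.42. ERBB2, the ERBB member with no known ligand of its own, read -0.53 and -0.58 against -0.40 and -0.37 (change -0.17 ± 0.04, limma adjusted p = 0.132). Both mimic arrays were lower, but of the 20 ERBB2 mimic spots 7 lay below all control spots. A second ERBB2 probe had a change of -0.05 ± 0.18 and ERBB3, whose kinase is weak, of -0.03 ± 0.20.

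The vascular receptors were barely represented. The FLT1 probe that was tested is annotated to transcript variant 4 and lies at positions 28979927 to 28979986 on the minus strand of chromosome 13 (hg19), while the probe for FLT1 transcript variant 1 was not well above background on any array. It read -3.27 and -3.20 on the mimic arrays and -2.81 and -2.67 on the control arrays. It was well above background on both control arrays and on neither mimic array, so it entered the test only through the group where it was higher. The control mean was 1.21-fold above the lowest signals well above background on the mimic arrays. That figure rests on this scaling and on the lowest flagged signal of any probe, so it is not a firm bound for FLT1. The measured change was -0.50 ± 0.07 (limma adjusted p = 0.0661), and with normexp background correction it was -0.08 (limma adjusted p = 0.369). FLT4, the receptor for VEGFC, read -0.66 and -0.66 against -0.56 and -0.57 (change -0.10 ± 0.04, limma adjusted p = 0.223). KDR, TEK and TIE1 were not detected.

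LTK, a receptor related to ALK, read 0.41 and 0.50 on the mimic arrays and 0.87 and 0.65 on the control arrays (change -0.31 ± 0.10, limma adjusted p = 0.175). The mimic arrays were lower, and the control arrays differed from each other by more than the mimic arrays did. Without control replicate 1 the change was -0.20, and a dimmer LTK probe had a change of 0.04 ± 0.11. ALK and ROS1, the other receptors of that group, were not detected. RET, the signaling receptor for the GDNF family, read -2.51 and -2.27 against -2.24 and -1.82 (change -0.36 ± 0.18, limma adjusted p = 0.317). Its change was -0.03 with normexp background correction and -0.15 without control replicate 2. NTRK2 and NTRK3, the receptors for BDNF and NTF3, were not detected. PDGFRB, whose paralog PDGFRA is mutated in some GISTs, read -1.80 and -1.63 against -1.73 and -1.33, and the groups overlapped (change -0.18 ± 0.17, and 0.02 without control replicate 2). MST1R, the receptor for macrophage-stimulating protein, had a change of 0.05 ± 0.11.

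**Figure D4:**
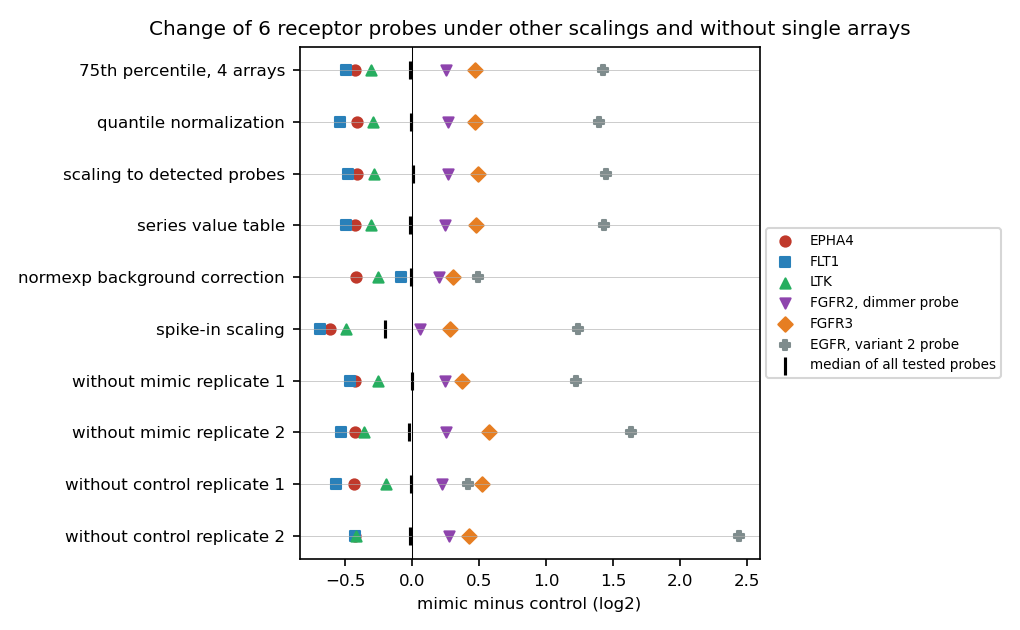
Mimic minus control (log2) of 6 receptor probes and the median of all tested probes (black bar) under other scalings and background corrections and with each array left out. EPHA4 stays between -0.62 and -0.41, the EGFR variant 2 probe moves from 2.44 to 0.42 with the control array left out, and under spike-in scaling all points shift left by 0.19.

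The directions above hold relative to the bulk of the array. The added control RNAs of the labeling kit (7 spike-in probes above background) read a median of 0.19 higher on the mimic arrays. When the arrays were scaled to them, the median of all tested probes became -0.20, 9076 of 20328 probes (44.6%) fell, and 13 of the 36 receptor probes fell with them. EPHA4 was then at -0.62, and FGFR1 at -0.18 (limma adjusted p = 0.0341), where it had been level.

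The receptor genes outside the members mostly stayed close to the control. Of 19, 9 were tested and 0 were called by limma, with 22.2% at an unadjusted p under 0.05. KIT had a change of -0.33 by its brightest probe (limma adjusted p = 0.0512) and between that and -0.06 over its 3 tested probes, PDGFRA of -0.08 and MERTK of 0.10, and INSR and IGF1R were not tested here. Of 61 genes for ligands of the receptors, 30 were tested, 20 lower and 10 higher, with a median of -0.05. At an unadjusted limma p under 0.05 there were 9 of them (30%), against 25.3% of all tested probes. By limma adjusted p 0 fell and 1 rose, against 1.15% and 1.47% of all tested probes. MST1, the ligand of MST1R, rose: it read 1.09 and 1.02 on the mimic arrays and 0.62 and 0.65 on the control arrays (change 0.42 ± 0.04, limma adjusted p = 0.0461), and its other tested probe had a change of 0.91. The gene has near-identical copies in the genome, so its signal may not be its own. NRG1, a neuregulin, was past 1.5-fold (change 0.97, limma adjusted p = 0.323) on mimic arrays that read -1.37 and -0.03 against -1.77 and -1.57, and over its 3 tested probes the change ran from 0.07 to 0.97. Of 45 genes for adaptors and signal relays, 38 were tested, 25 lower and 13 higher, and 0 were called by limma, with 18.4% at an unadjusted p under 0.05 against 25.3% of all tested probes. Of 43 genes for receptor inhibitors and turnover, 38 were tested, 25 lower and 13 higher, with 15.8% at an unadjusted limma p under 0.05. Among them 1 fell, against 1.15% of all tested probes: STAM, which sorts internalized receptors for degradation, read -1.44 and -1.34 against -0.90 and -0.92 (change -0.48 ± 0.05, limma adjusted p = 0.0468). These 3 lists had medians of -0.05, -0.04 and -0.04, beside -0.01 over all tested probes.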

How the data were processed

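The microRNA mimic and the control were compared over 4 arrays. The authors deposited spot intensity values from Agilent Feature Extraction 10.7.3.1 (per the file headers), background-subtracted and detrended within each array but not normalized between arrays, and a value table of the same processed intensity for the whole series. The study gives a limit of 1.5-fold for its arrays; the fold values here were computed anew, and no comparison columns were used.

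Control spots and between 356 and 395 outlier spots per array were left out. Replicate spots were then averaged as log2 values, from which the array's 75th percentile was subtracted. The scanner flag of a signal well above background was taken for a probe if a share of 0.5 or more of its remaining spots had it. All 20328 tested probes (15454 gene names) were fitted by lmFit and eBayes of limma 3.58.1 (R 4.3.3) with no covariates, and p-values were adjusted over all of them by the Benjamini-Hochberg method at 0.05. The fit was tested on simulated data. Figures were drawn with matplotlib 3.10.9.

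A gene was represented by its tested probe with the highest mean signal. Values per array were to be given for genes that passed the test, that changed by more than 1.5-fold, or that were among the 10 brightest; other genes with values were chosen after their values were seen. The receptor genes and the lists of ligands, relays, inhibitors and markers were chosen with earlier results of these data known. All 39 symbols were found in RefSeq. Coordinates are those of the array annotation (hg19), and no genome was used here. The position of a probe within its transcript (exon or UTR) was not analysed here. Replicate numbers did not pair the samples (correlation of the replicate differences 0.03). The precision is limited by the number of arrays. Alternatives were other scalings, normexp background correction, the value table, other filters on dim probes, the replicate number as a block, a trend or robust fit, 1 probe per gene, the methods' t-test (named there for continuous variables in general) and each array left out.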

Additional observations from a re-analysis of the deposited data

How the results depend on the processing

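The count of 1 receptor probe that fell was 13 with spike-in scaling (36.1% of the receptor probes, against 44.6% of all tested probes). It was 3 with an intensity trend in the fit (8.33% against 8.54%). It was 0 without a filter on dim probes, with probes above background on at least 1 array, and with the replicate block, where 0 of all tested probes fell. By the methods' t-test it was 5 unadjusted (11.0% of all tested probes fell) and 0 after Benjamini-Hochberg adjustment. The count of 0 that rose was 1 with normexp (FGFR3), where 792 of all 20328 tested probes rose. It was 2 with the trend (FGFR3 and the dimmer FGFR2 probe), where 1347 of all rose, and 1 by the unadjusted t-test (9.27% of all). Past 1.5-fold, 0 receptor probes were lower in the values reported, against 2 with spike-in scaling, 2 without a filter and 1 with probes above background on at least 1 array. Over all tested probes, 774 of 20328, 2759 of 50526 and 1075 of 22850 were lower by that much in these 3 settings. Without a filter, 3299 of all probes were higher by that much. The 1 higher probe became 0 with normexp, 0 with probes above background on all 4 arrays, 0 when every pairing of a mimic and a control array had to pass, 0 to 1 with 1 array left out (0 without control replicate 1), and 5 without a filter. The median change of -0.05 was -0.24 with spike-in scaling and 0.0428 without a filter, where 70 probes entered. FGFR1 turned from 0.00 to -0.18 with spike-in scaling. EPHA4 passed in 9 of 16 alternatives, with limma adjusted p from 3.28e-04 to 0.448. Of 28 receptor probes followed through the alternatives, 14 kept their sign in every alternative, and the 14 that did not had reported changes of at most 0.18 in size. Beyond the scaling shift and the changed sets of probes, the cause of these differences was not tested.

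The replicate numbers shared by the groups did not pair the samples, and with the block the calls over all tested probes went from 532 to 0 (4400 at an unadjusted p under 0.05). Over all tested probes, 233 fell and 299 rose; the counts were 758 and 792 with normexp, 1736 and 1347 with the trend, 9076 and 516 with spike-in scaling, 0 and 0 without a filter (3627 unadjusted) or with probes above background on at least 1 array (4696 unadjusted), and 0 and 0 to 8 with an array left out. No block for slide or scan was possible, since all arrays shared 1 slide and 1 scan. For the 13 undetected receptor genes the arrays give an upper bound on the signal and no change.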
